A study of Mus musculus with 12 samples.

Results

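The 40 genes described here encode receptors for cytokines and growth factors, among them the interferon, tumour necrosis factor and TGF-beta receptors. They were chosen by name from the annotated count table and exclude Flt3, Il7r, Il2ra, Il2rb and Kit. All 40 were found among the 39017 genes of the table, all 40 had counts, and all 40 were among the 16024 genes that passed the filter on low counts and were tested.

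Cytokine receptors are assembled at the cell surface from ligand-binding and signalling chains, many of which serve several ligands. The type I and type II cytokine receptors lack a kinase of their own and signal through JAK kinases bound to their tails and STAT transcription factors, the IL-1 receptor family through MyD88, the TNF receptors through TRAF adaptors and NF-kB, the TGF-beta receptors through SMAD factors, and Csf1r and Igf1r through a tyrosine kinase in the receptor itself. In the bone marrow, the set of receptors a stem or progenitor cell carries is part of what separates myeloid, erythroid and lymphoid progenitors, and Notch signalling with its target Tcf7 (the gene of the transcription factor TCF1) is known for starting the T lineage programme.

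RNA was sequenced from LSK cells, the bone marrow fraction that lacks lineage markers and carries Sca1 and cKit and that holds the blood stem cells and multipotent progenitors, of C57BL/6J; Sv/129 mice, with 3 libraries in each of 4 groups. Every mouse received poly(I:C) at 2 ug per g body weight, a double-stranded RNA mimic that raises type I interferon and so turns on Mx1Cre, a Cre recombinase under an interferon-responsive promoter that acts in blood cells and also in other tissues. NOTCHWT_TCFWT mice are labelled wild type for the transgene, with the poly(I:C) as a control injection and no Mx1Cre named. NICD_TCFWT mice carried R26 N1IC lox/+ Mx1Cre, which places the intracellular part of Notch1 under control of Cre; NICD_TCFKO mice carried R26 N1IC lox/+ Tcf7 lox/lox Mx1Cre; NOTCHWT_TCFKO mice carried Tcf7 lox/lox Mx1Cre. The cells of both N1IC groups were also gated on CD45.2 and eGFP, so that this gate and the N1IC label cannot be told apart. The labels used here give no age, sex or time after injection, and nothing in them says whether the libraries of a group came from separate mice, so that p-values measure the spread between these libraries.

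Library totals ranged from 30453271 to 43790674 counts. Values are given as CPM (counts scaled to a common library size, here after TMM scaling), and 3 counts in the shallowest library correspond to 0.0985 CPM. The genes that the labels concern did not all follow them. Tcf7 stood at 14.8 ± 4.54 CPM (SD, n = 3) in NOTCHWT_TCFWT, 5.5 ± 1.11 in NICD_TCFWT, 603 ± 299.8 in NICD_TCFKO and 1.28 ± 1.31 in NOTCHWT_TCFKO, counted over the whole gene and not over the floxed part alone. The Notch target Hes1 averaged 177, 4.54, 158 and 7.67 CPM in the same order, and Dtx1, another target, 85.4, 0.124, 121 and 0.208. Levels in the libraries labelled NOTCHWT_TCFWT and NICD_TCFWT thus went against their Notch labels, and Tcf7 in those labelled NICD_TCFKO against their Tcf7 label. Group names below therefore stand for the libraries so labelled, and every direction is between labels. The library labelled NOTCHWT_TCFKO 1 held both Xist (2155 CPM) and Y-linked transcripts (154 CPM in sum). The sexes were not balanced over the groups. All 3 NOTCHWT_TCFWT libraries held Xist, at 3545 to 4602 CPM, with a Y-linked sum of at most 0.0865 CPM. NICD_TCFWT 1 and 2, NICD_TCFKO 1 and NOTCHWT_TCFKO 3 had at most 1.88 CPM of Xist and Y-linked sums of 308 to 355 CPM, and the other 4 libraries held Xist and almost no Y-linked counts. A fit with a term for the 8 libraries with at least 100 CPM of Xist, added after these levels were seen, kept 110 of the 116 calls on single receptors described below.

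The markers of the gate were present: all 10 LSK and stem cell markers, Kit and Ly6a (Sca1) among them, had counts in every library, with a summed level of 2052 to 2485 in NOTCHWT_TCFWT, 2862 to 3389 in NICD_TCFWT, 1644 to 2306 in NICD_TCFKO and 2245 to 3456 in NOTCHWT_TCFKO. In the same order, Kit averaged 788.5, 786, 644 and 812 CPM. Ly6a averaged 123, 73.0, 102 and 37.5 CPM and so was lower in NICD_TCFWT and NOTCHWT_TCFKO, unlike the sum. Markers of other blood cells also moved with the groups. The 12 T lineage markers summed to 375 to 413 in NOTCHWT_TCFWT, 42.2 to 68.1 in NICD_TCFWT, 479.6 to 1394 in NICD_TCFKO and 39.5 to 75.1 in NOTCHWT_TCFKO CPM, with 9, 7, 12 and 9 of the 12 counted in all 3 libraries of the group. Cd3g and Ptcra were at 0 in NICD_TCFWT and Ptcra in NOTCHWT_TCFKO. In NOTCHWT_TCFWT, Lck (203 CPM), Trbc2 (136) and Trbc1 (34.4) had the highest means of this list. Cd3e, Cd3d, Cd3g, Cd8a, Ptcra and Bcl11b averaged at most 0.378 CPM there, and 2.9 to 66.2 CPM in NICD_TCFKO. Cd4 was lowest in NOTCHWT_TCFWT at 1.17 CPM and highest in NOTCHWT_TCFKO at 7.62 CPM. The 11 granulocyte and monocyte markers other than Csf1r summed to 45.6 to 70.6 in NOTCHWT_TCFWT, 1496 to 6069 in NICD_TCFWT, 437 to 1239 in NICD_TCFKO and 1368 to 9250.4 in NOTCHWT_TCFKO CPM, with 9, 11, 11 and 11 of the 11 counted throughout and none at 0. The 12 macrophage markers summed to 5.75 to 6.66 in NOTCHWT_TCFWT, 8.71 to 23.7 in NICD_TCFWT, 6.7 to 12.4 in NICD_TCFKO and 350.1 to 494 in NOTCHWT_TCFKO CPM; Marco was at 0 in every group but NOTCHWT_TCFKO, and Timd4 in NOTCHWT_TCFWT and NICD_TCFKO. The 10 markers of natural killer and innate lymphoid cells summed to 819.6 to 1586 in NOTCHWT_TCFWT, 133 to 161 in NICD_TCFWT, 363 to 492 in NICD_TCFKO and 105 to 146 in NOTCHWT_TCFKO CPM, with 9, 9, 9 and 8 of the 10 counted throughout. The part of these lists in the receptor differences below was not tested, and in bulk RNA fewer cells of a type and less RNA per cell cannot be told apart.

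Both labels were compared: the N1IC label with the Tcf7 label held, and the Tcf7 label with the N1IC label held. Label here and below means the N1IC or the Tcf7 label alone. Mx1Cre is named for every group but NOTCHWT_TCFWT. In any result that uses NOTCHWT_TCFWT, Mx1Cre therefore cannot be told apart from these labels. In NICD_TCFWT against NOTCHWT_TCFWT, 14 of the 40 receptors were higher and 7 lower at an adjusted p under 0.05, against 10.6% and 9.75% of all genes tested. Csf3r, Il6ra, Il21r, Il11ra1, Lifr and the second chains of the interferon gamma and IL-10 receptors were among the higher ones, and Il9r, Il17rb, Il12rb2, Il12rb1, Il2rg and Tgfbr2 among the lower ones. The median absolute log2 difference of the 40 was 0.87, and of all genes 0.26.

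In NOTCHWT_TCFKO against NOTCHWT_TCFWT, which shares its control libraries with the comparison above, 18 receptors were higher and 9 lower, with a background of 10.8% and 10.5% of all genes. Il6ra, Csf3r, Il21r, Ifngr1, Ifngr2 and Il10rb were higher in the libraries labelled NOTCHWT_TCFKO, and Il9r, Il17rb, Il2rg, Il12rb1, Il12rb2, Il27ra and Tgfbr2 were lower. The median absolute difference was 0.92, against 0.26 over all genes.

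In NICD_TCFKO against NICD_TCFWT, 5 receptors were higher (Il9r, Il12rb2, Il17rb, Tgfbr1 and Tgfbr2) and 9 lower, with a background of 7.25% and 5.15%, and the medians of the absolute difference were 0.62 for the receptors and 0.24 for all genes. These counts moved with single libraries: without NICD_TCFWT 1 there were 3 higher and 4 lower, and without NICD_TCFKO 2 there were 4 lower. In NICD_TCFKO against NOTCHWT_TCFKO, 8 receptors were higher and 13 lower, with a background of 10.3% and 8.06%, and medians of 0.61 and 0.26. The higher ones were Il2rg, Il9r, Il12rb1, Il12rb2, Il17rb, Il10ra, Tgfbr1 and Tgfbr2.

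The pairs that differ in both labels gave fewer differences. NICD_TCFKO against NOTCHWT_TCFWT had 8 receptors higher and 0 lower (background 4.01% and 2.30%). At an unadjusted p under 0.05, 11 were lower; DESeq2 called 8 lower, limma-voom 1 and the fit with a term for Xist 5. The count of 8 became 3 without NOTCHWT_TCFWT 1, 3 without NOTCHWT_TCFWT 3, and 4 without NICD_TCFKO 2 or NICD_TCFKO 3. NICD_TCFWT against NOTCHWT_TCFKO had 0 higher and 0 lower (background 1.54% and 1.34%) with edgeR, while 4 and 3 had an unadjusted p under 0.05; DESeq2 called 1 and 2, limma-voom 0 and 0. The median absolute difference between these 2 groups was 0.26, and 0.21 over all genes. In the joint test of all 4 groups 30 of the 40 receptors differed, with a background of 29.7%. The effect of the N1IC label differed between the Tcf7 labels (an interaction) for 25 of them, 8 with a positive and 17 with a negative difference, with a background of 13.8% and 13.5%.

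**Figure D1:**
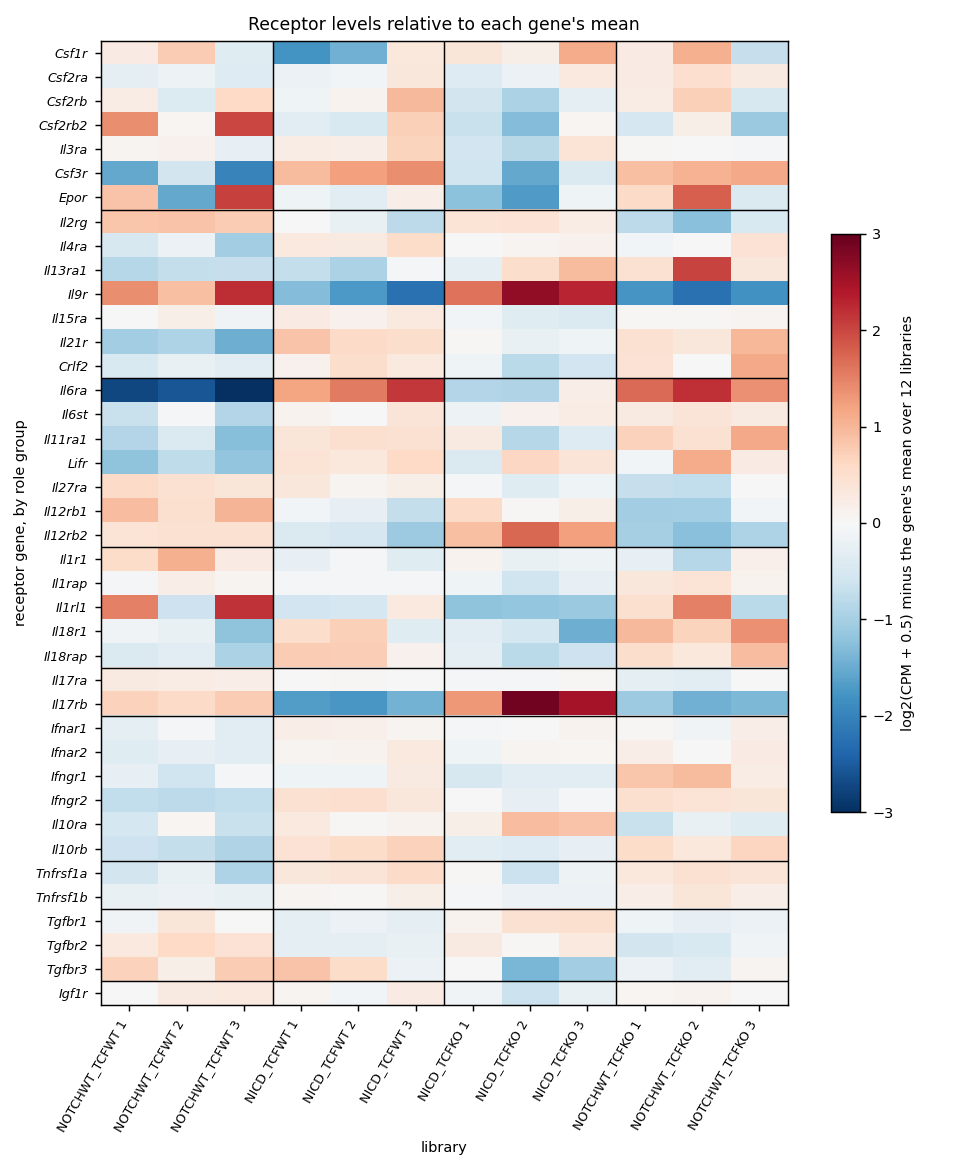
Levels of the 40 receptor genes (vertical axis, by role group, lines between groups) in the 12 libraries (horizontal axis), as log2(CPM + 0.5) minus the mean of the gene over the 12 libraries; red is above and blue below the mean. Il9r, Il17rb and Il12rb2 are red in NOTCHWT_TCFWT and NICD_TCFKO, and Il6ra, Csf3r and Il21r are red in NICD_TCFWT and NOTCHWT_TCFKO.

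**Figure D2:**
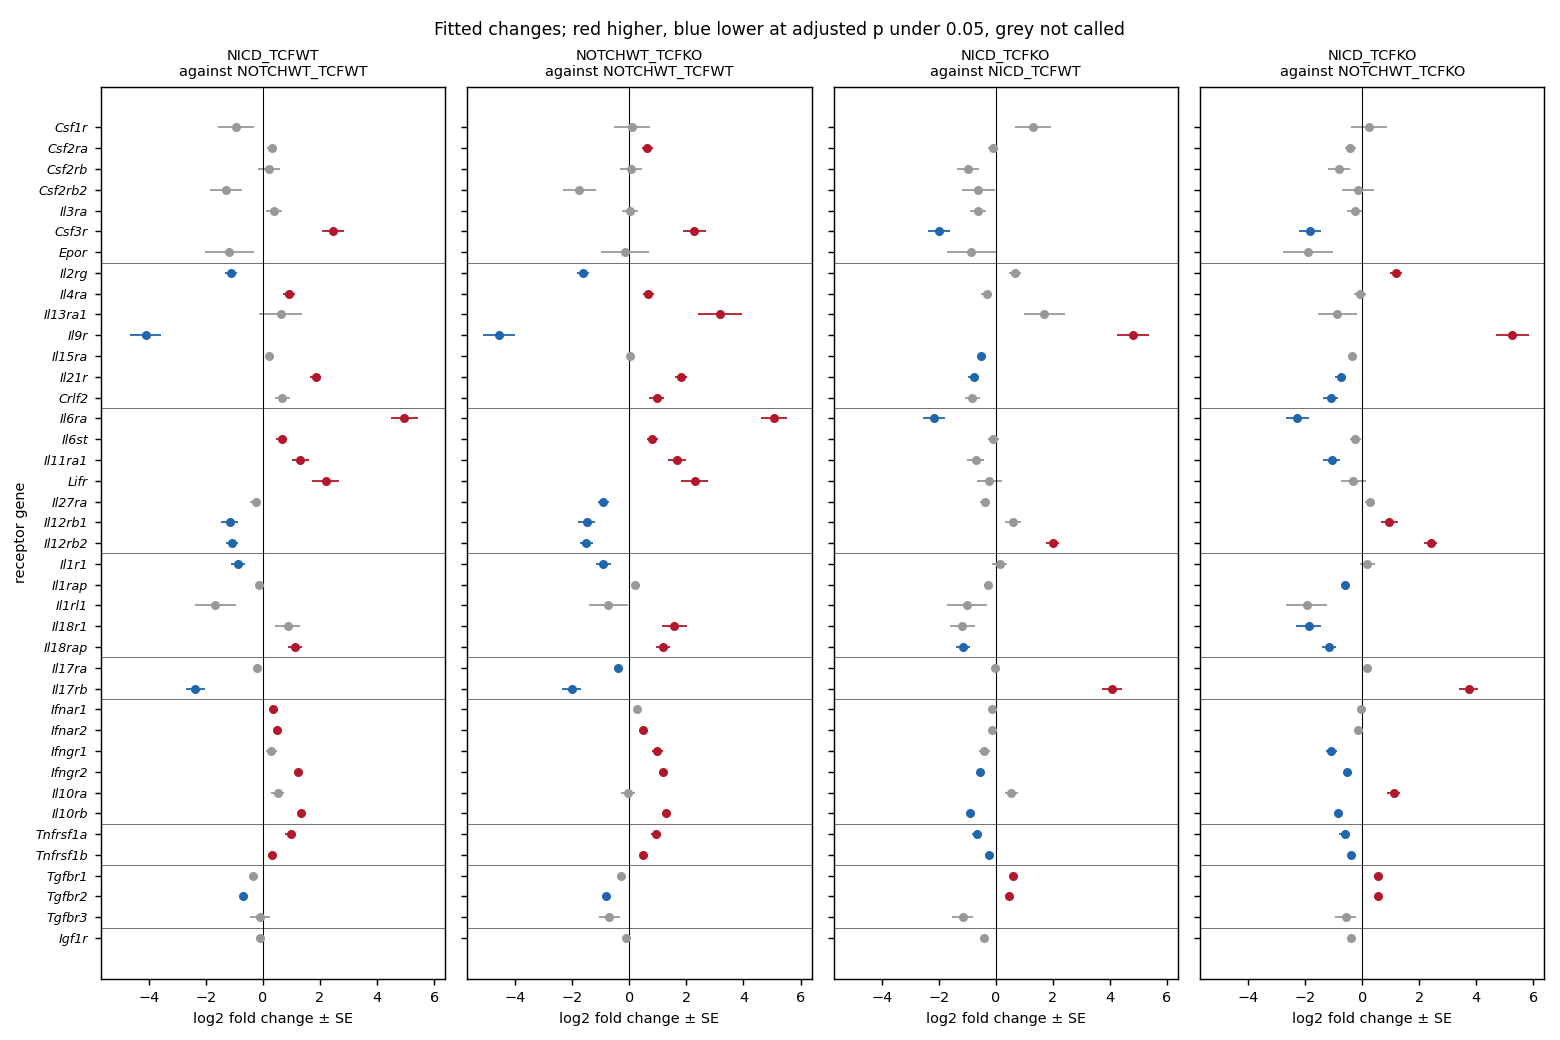
Log2 fold changes (horizontal axis, points with their SE as bars) of the 40 receptors (vertical axis) in the 4 pairs of groups that differ in 1 label; red points were higher and blue points lower at an adjusted p under 0.05, grey points were not called. Il9r, Il17rb and Il6ra lie farthest from 0 among the called receptors.

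Among the 7 receptors for myeloid and erythroid growth factors, Csf3r, the receptor of G-CSF and the main growth factor receptor of the neutrophil lineage, was the only one called in more than 1 pair, and Csf2ra was called in 1. Csf3r stood at 40.8, 81.9 and 29.4 CPM in NOTCHWT_TCFWT and 78.5, 40.7 and 87.6 in NICD_TCFKO. Csf3r read 229.5, 279.7 and 317 CPM in NICD_TCFWT and 225, 247 and 263 in NOTCHWT_TCFKO. The libraries of NOTCHWT_TCFWT and NICD_TCFKO all lay below those of the other 2 groups. Its log2 fold change was 2.44 ± 0.39 (adjusted p = 0.00244) in NICD_TCFWT and 2.28 ± 0.39 (adjusted p = 0.00311) in NOTCHWT_TCFKO, each against NOTCHWT_TCFWT. Csf3r in NICD_TCFKO was -2.0 ± 0.38 (adjusted p = 0.0101) against NICD_TCFWT and -1.83 ± 0.38 (adjusted p = 0.0106) against NOTCHWT_TCFKO. The granulocyte and monocyte sums given above were likewise lower in NOTCHWT_TCFWT and NICD_TCFKO. In NOTCHWT_TCFKO they were 7264, 9250.4 and 1368 CPM in libraries 1, 2 and 3. Mpo had the highest means of this list, 23.5, 2696.5, 435 and 3790 CPM in NOTCHWT_TCFWT, NICD_TCFWT, NICD_TCFKO and NOTCHWT_TCFKO. Not every marker followed the sum: Ly86 averaged 33.3 CPM in NICD_TCFKO, 4.49 in NICD_TCFWT and 16.7 in NOTCHWT_TCFKO. S100a8 and S100a9 also averaged more in NICD_TCFKO, at 24.0 and 36.9 CPM, than in NICD_TCFWT, at 0.989 and 1.75. Within groups, Csf3r had the order of the sums in NICD_TCFWT and NICD_TCFKO and another order in NOTCHWT_TCFWT and NOTCHWT_TCFKO. The part of these markers in the Csf3r differences was not tested. Csf2ra, the GM-CSF-binding chain, had 28.9, 32.0 and 26.8 CPM in NOTCHWT_TCFWT and 26.9, 31.3 and 43.6 in NICD_TCFKO. Csf2ra read 31.3, 33.5 and 45.0 CPM in NICD_TCFWT and 41.8, 50.8 and 42.8 in NOTCHWT_TCFKO. Csf2ra was higher in NOTCHWT_TCFKO than in NOTCHWT_TCFWT by 0.63 ± 0.18 (adjusted p = 0.0343), a call lost without NOTCHWT_TCFWT 1 or 3 or NOTCHWT_TCFKO 1 or 2 (adjusted p up to 0.118).

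The other 5 of this group were called in no pair and not in the joint test. Csf1r, the M-CSF receptor of monocytes and macrophages, averaged 67.6 ± 25.6 (SD), 35.0 ± 29.5, 85.5 ± 31.3 and 72.1 ± 41.6 CPM in NOTCHWT_TCFWT, NICD_TCFWT, NICD_TCFKO and NOTCHWT_TCFKO. Epor, the erythropoietin receptor, averaged 21.4 ± 20.0, 9.43 ± 1.83, 5.2 ± 3.32 and 19.3 ± 14.8 CPM in the same order. Both spread widely within groups. In libraries 1, 2 and 3 of NOTCHWT_TCFWT, Epor was 18.3, 3.11 and 42.7 CPM, where the 8 erythroid markers summed to 904, 626 and 1618 CPM. In NOTCHWT_TCFKO, Epor was 15.0, 35.8 and 7.17 CPM and the erythroid sum 1233, 2672 and 941. In NICD_TCFKO they were 3.95, 2.69 and 8.96 and 674, 465 and 728 CPM, and in NICD_TCFWT 9.06, 7.81 and 11.4 and 835, 806 and 823 CPM. The order of the libraries was the same for receptor and markers in 3 groups and differed in NICD_TCFWT. Csf1r was 15.8, 20.2 and 68.9 CPM in NICD_TCFWT beside granulocyte and monocyte sums of 1496, 2569 and 6069, and 72.1, 63.2 and 121 in NICD_TCFKO beside 506, 437 and 1239. Csf1r read 65.7, 117 and 34.2 CPM in NOTCHWT_TCFKO, beside the sums given for Csf3r, and 66.0, 94.0 and 42.8 in NOTCHWT_TCFWT beside 70.6, 45.6 and 47.5. The orders were the same in 3 groups, while in NOTCHWT_TCFWT the library highest in Csf1r was lowest in the sum. The exons of Csf1r overlap those of Hmgxb3 by 873 bases, so that its counts are uncertain; Hmgxb3 was called in 3 pairs, with -0.40 ± 0.06 (adjusted p = 0.00084) in NOTCHWT_TCFKO against NOTCHWT_TCFWT farthest from 0. Il3ra, the IL-3-binding chain, averaged 20.0 ± 2.68, 26.3 ± 5.3, 17.0 ± 8.51 and 20.1 ± 0.587 CPM.

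The signalling chains Csf2rb, shared by the receptors for GM-CSF, IL-3 and IL-5, and Csf2rb2, a chain found in mice that serves IL-3 alone, lie 20.0 kb apart on chromosome 15. They are near-identical copies, so that reads could be assigned to either and both values are uncertain. Csf2rb averaged 78.6 ± 26.0, 90.8 ± 39.4, 46.4 ± 10.3 and 81.2 ± 32.2 CPM in NOTCHWT_TCFWT, NICD_TCFWT, NICD_TCFKO and NOTCHWT_TCFKO, and Csf2rb2 averaged 58.8 ± 34.2, 23.9 ± 11.8, 15.7 ± 7.55 and 17.3 ± 7.88. Csf2rb2 spread from 23.9 to 92.2 CPM within NOTCHWT_TCFWT. Its libraries had the order of their erythroid sums in each group but NICD_TCFWT. Per length, the ratio of Csf2rb2 to Csf2rb was 0.707 to 1.36 in NOTCHWT_TCFWT, 0.34 to 0.436 in NICD_TCFWT, 0.386 to 0.651 in NICD_TCFKO and 0.299 to 0.35 in NOTCHWT_TCFKO.

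**Figure D3:**
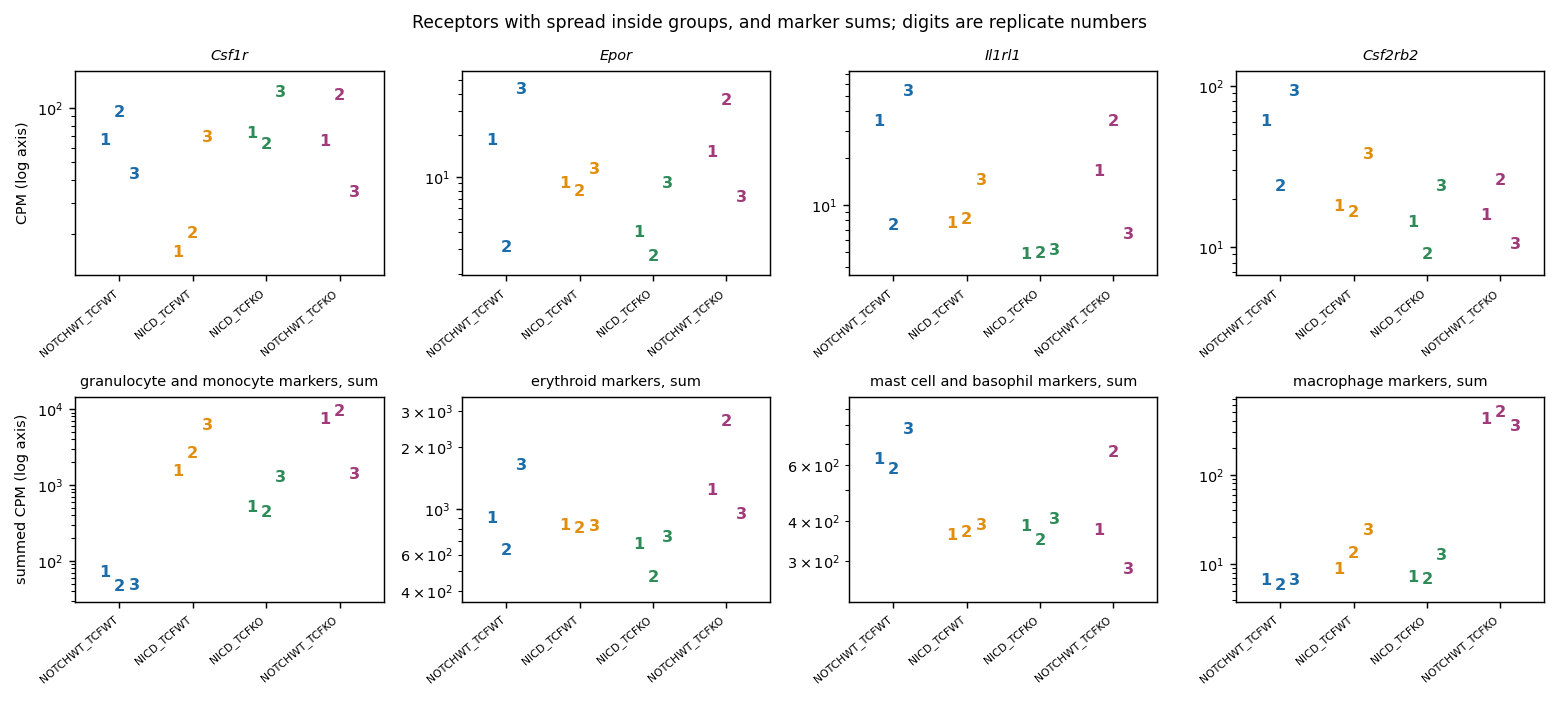
Levels of Csf1r, Epor, Il1rl1 and Csf2rb2 (upper panels, CPM, log axis) and sums of 4 marker lists (lower panels, summed CPM, log axis) by group on the horizontal axis, with each library drawn as its replicate number. Library 3 is highest in NOTCHWT_TCFWT and library 2 in NOTCHWT_TCFKO for Epor, Il1rl1 and Csf2rb2 as well as for the erythroid and the mast cell sums; in NICD_TCFWT library 3 is highest for the 4 receptors and library 1 for the erythroid sum.

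The receptors listed here with the common gamma chain split by group in opposite directions. The list does not mean that each of its members pairs with that chain. Il2rg, the gamma chain shared by the receptors for IL-2, IL-4, IL-7, IL-9, IL-15 and IL-21, was lower in NICD_TCFWT and NOTCHWT_TCFKO, and so was Il9r, which binds IL-9 and is known from T helper cells and mast cells. Il21r and Il4ra, the binding chains for IL-21 and IL-4, were higher there. Il9r stood at 8.68, 5.98 and 15.6 CPM in NOTCHWT_TCFWT and 10.3, 21.6 and 16.5 in NICD_TCFKO. Il9r read 0.923, 0.566 and 0.243 CPM in NICD_TCFWT and 0.528, 0.239 and 0.485 in NOTCHWT_TCFKO. All 6 libraries of NOTCHWT_TCFWT and NICD_TCFKO lay at 5.98 CPM or more, and the other 6 below 1 CPM. The log2 fold change was -4.12 ± 0.55 (adjusted p = 0.000706) in NICD_TCFWT and -4.58 ± 0.56 (adjusted p = 0.000344) in NOTCHWT_TCFKO against NOTCHWT_TCFWT. Il9r in NICD_TCFKO was 4.80 ± 0.56 (adjusted p = 0.000697) against NICD_TCFWT and 5.26 ± 0.58 (adjusted p = 0.000241) against NOTCHWT_TCFKO, a fold size of 38.3.

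Il2rg had 166, 169 and 158 CPM in NOTCHWT_TCFWT and 124, 125 and 109 in NICD_TCFKO. Il2rg read 92.1, 79.1 and 54.1 CPM in NICD_TCFWT and 53.7, 38.6 and 67.4 in NOTCHWT_TCFKO. NOTCHWT_TCFWT was highest, NICD_TCFKO came next without overlap, and the other 2 groups overlapped each other below. Against NOTCHWT_TCFWT it was lower at a log2 difference of -1.13 ± 0.21 (adjusted p = 0.0043) in NICD_TCFWT and -1.62 ± 0.21 (adjusted p = 0.000519) in NOTCHWT_TCFKO, and NICD_TCFKO was above NOTCHWT_TCFKO by 1.17 ± 0.21 (adjusted p = 0.0045). Its difference between NICD_TCFKO and NICD_TCFWT was 0.67 ± 0.21 (adjusted p = 0.06) and was not called. Il2rg lies on the X chromosome, and with the term for Xist the differences against NOTCHWT_TCFWT were -1.44 ± 0.17 (adjusted p = 0.000436) in NICD_TCFWT and -1.79 ± 0.15 (adjusted p = 3.58e-05) in NOTCHWT_TCFKO. That fit also called Il2rg in NICD_TCFKO, with 0.85 ± 0.15 (adjusted p = 0.00702) against NICD_TCFWT and -0.59 ± 0.15 (adjusted p = 0.0313) against NOTCHWT_TCFWT. The gamma chain partners that were left out of the 40 were low or unlike it in these libraries: Il2rb averaged at most 2.34 CPM in any group, Il7r 0.471, 4.76, 64.5 and 12.5 CPM, and Il2ra 801 CPM in NICD_TCFKO and at most 1.9 elsewhere.

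Il21r had 11.3, 12.4 and 8.31 CPM in NOTCHWT_TCFWT and 24.4, 20.5 and 21.8 in NICD_TCFKO. Il21r read 43.8, 36.0 and 34.9 CPM in NICD_TCFWT and 33.1, 30.7 and 48.4 in NOTCHWT_TCFKO. The NOTCHWT_TCFWT libraries were lowest and the NICD_TCFKO libraries lay between them and the other 2 groups. Il21r was higher by 1.84 ± 0.20 (adjusted p = 0.00018) in NICD_TCFWT, 1.81 ± 0.20 (adjusted p = 0.000154) in NOTCHWT_TCFKO and 1.06 ± 0.19 (adjusted p = 0.0117) in NICD_TCFKO, each against NOTCHWT_TCFWT. Il21r in NICD_TCFKO was -0.78 ± 0.19 (adjusted p = 0.0243) against NICD_TCFWT, lost without NICD_TCFWT 1 or 2 or NICD_TCFKO 2 or 3 (adjusted p up to 0.0902), and -0.75 ± 0.19 (adjusted p = 0.0219) against NOTCHWT_TCFKO, lost without NICD_TCFKO 2 or 3 and with only the 2 groups fitted (adjusted p up to 0.0723). Il4ra, which lies 24.0 kb from Il21r on chromosome 7, had 47.4, 58.4 and 31.9 CPM in NOTCHWT_TCFWT and 65.5, 70.2 and 71.8 in NICD_TCFKO. Il4ra read 81.1, 80.0 and 97.5 CPM in NICD_TCFWT and 62.4, 66.3 and 89.4 in NOTCHWT_TCFKO. Il4ra was higher by 0.91 ± 0.20 (adjusted p = 0.0102) in NICD_TCFWT and by 0.66 ± 0.20 (adjusted p = 0.0379) in NOTCHWT_TCFKO, and the second call was lost in 7 of 12 fits that each left out 1 library and with only the 2 groups fitted (adjusted p up to 0.114).

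Il15ra, which presents IL-15 to neighbouring cells, had 19.4, 22.3 and 18.2 CPM in NOTCHWT_TCFWT and 18.5, 15.0 and 14.3 in NICD_TCFKO. Il15ra read 23.1, 21.4 and 24.2 CPM in NICD_TCFWT and 20.2, 20.0 and 20.7 in NOTCHWT_TCFKO. The groups differed in the joint test (adjusted p = 0.0339), and NICD_TCFKO was below NICD_TCFWT at a log2 difference of -0.52 ± 0.12 (adjusted p = 0.0179), a call lost without NICD_TCFWT 1 or 3 or NICD_TCFKO 2 or 3 (adjusted p up to 0.0745). Crlf2, the binding chain for the epithelial cytokine TSLP, had 17.8, 21.0 and 19.1 CPM in NOTCHWT_TCFWT and 22.2, 13.8 and 16.3 in NICD_TCFKO. Crlf2 read 26.9, 35.5 and 30.2 CPM in NICD_TCFWT and 33.0, 24.9 and 54.5 in NOTCHWT_TCFKO. Crlf2 was higher in NOTCHWT_TCFKO than in NOTCHWT_TCFWT by 0.96 ± 0.26 (adjusted p = 0.0261), lost without NOTCHWT_TCFWT 1 or 3 or NOTCHWT_TCFKO 3 and with only the 2 groups fitted (adjusted p up to 0.0828), and lower in NICD_TCFKO than in NOTCHWT_TCFKO at a log2 difference of -1.10 ± 0.26 (adjusted p = 0.0176), lost without NICD_TCFKO 2 or 3 and with only the 2 groups fitted (adjusted p up to 0.0862). Il13ra1, the chain that joins Il4ra in the IL-13 receptor, stayed at or below 4.62 CPM in every library and averaged 0.249, 0.385, 1.26 and 2.31 CPM. Il13ra1 was higher in NOTCHWT_TCFKO than in NOTCHWT_TCFWT by 3.19 ± 0.77 (adjusted p = 0.0132), lost without NOTCHWT_TCFWT 1 or NOTCHWT_TCFKO 2 (adjusted p up to 0.0583); the macrophage sums given above were highest in NOTCHWT_TCFKO, and their part was not tested. Il13ra1 also lies on the X chromosome; with the term for Xist this difference was 3.59 ± 0.53 (adjusted p = 0.00089), and that fit also called 2.68 ± 0.52 (adjusted p = 0.0103) in NICD_TCFKO against NOTCHWT_TCFWT and -2.35 ± 0.73 (adjusted p = 0.0378) in the interaction. Of the 7 receptors of this list the counts higher and lower were 2 and 2 in NICD_TCFWT against NOTCHWT_TCFWT, 4 and 2 in NOTCHWT_TCFKO against NOTCHWT_TCFWT, 1 and 2 in NICD_TCFKO against NICD_TCFWT and 2 and 2 in NICD_TCFKO against NOTCHWT_TCFKO. Of all genes, 10.6% and 9.75%, 10.8% and 10.5%, 7.25% and 5.15%, and 10.3% and 8.06% were higher and lower in these pairs.

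**Figure D4:**
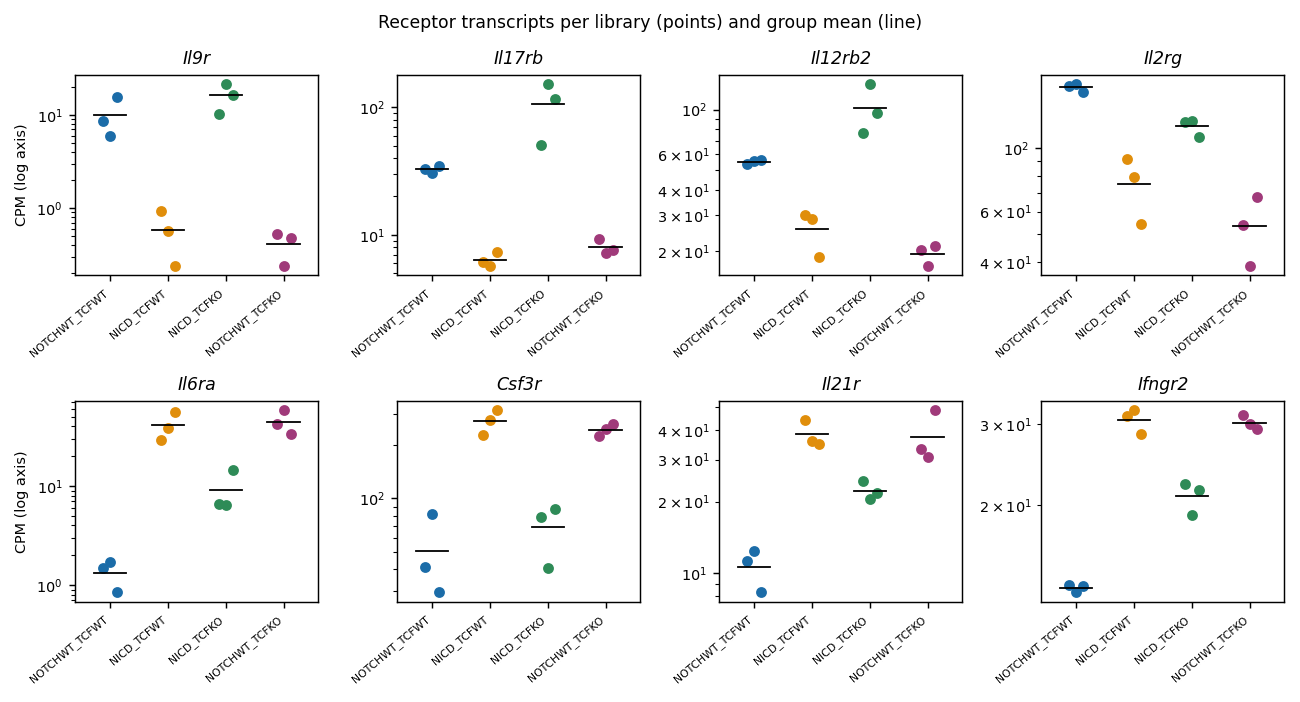
Levels of 8 receptors in CPM (vertical, log axis) by group (horizontal), with each library as a point and the group mean as a line. Il9r lies between 5.98 and 21.6 CPM in NOTCHWT_TCFWT and NICD_TCFKO and below 1 CPM elsewhere; Il6ra, Csf3r, Il21r and Ifngr2 are low in NOTCHWT_TCFWT and high in NICD_TCFWT and NOTCHWT_TCFKO.

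In the gp130 and IL-12 family the receptors for IL-6 and IL-11 and those for IL-12 stood on opposite sides. Il6ra, which binds IL-6 and hands it to the signalling chain gp130 (Il6st), had 1.47, 1.69 and 0.84 CPM in NOTCHWT_TCFWT and 6.6, 6.46 and 14.4 in NICD_TCFKO. Il6ra read 29.0, 38.1 and 56.4 CPM in NICD_TCFWT and 41.9, 58.6 and 33.3 in NOTCHWT_TCFKO. The 4 groups fell into 3 levels that did not overlap, NOTCHWT_TCFWT lowest, NICD_TCFKO between, and NICD_TCFWT and NOTCHWT_TCFKO overlapping above. The log2 fold change was 4.96 ± 0.46 (adjusted p = 0.000102) in NICD_TCFWT and 5.08 ± 0.46 (adjusted p = 6.41e-05) in NOTCHWT_TCFKO against NOTCHWT_TCFWT, fold sizes of 31.1 and 33.7. Il6ra in NICD_TCFKO was -2.17 ± 0.40 (adjusted p = 0.00745) against NICD_TCFWT, -2.28 ± 0.40 (adjusted p = 0.00415) against NOTCHWT_TCFKO and 2.79 ± 0.42 (adjusted p = 0.00589) against NOTCHWT_TCFWT, the last call lost with limma-voom (adjusted p up to 0.06). Il6st itself had 39.5, 61.3 and 34.3 CPM in NOTCHWT_TCFWT and 56.3, 69.4 and 73.4 in NICD_TCFKO. Il6st read 67.4, 62.2 and 82.3 CPM in NICD_TCFWT and 75.9, 82.8 and 75.8 in NOTCHWT_TCFKO. Il6st was higher by 0.65 ± 0.20 (adjusted p = 0.0393) in NICD_TCFWT, lost in 10 of 12 fits that each left out 1 library and with only the 2 groups fitted (adjusted p up to 0.139), and by 0.80 ± 0.20 (adjusted p = 0.0158) in NOTCHWT_TCFKO, lost without NOTCHWT_TCFWT 1 or 3 or NOTCHWT_TCFKO 2 (adjusted p up to 0.0688).

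Il11ra1, the IL-11-binding chain, had 11, 15.1 and 8.26 CPM in NOTCHWT_TCFWT and 25.1, 11.2 and 15.6 in NICD_TCFKO. Il11ra1 read 26.7, 29.2 and 28.6 CPM in NICD_TCFWT and 33.7, 28.7 and 46.3 in NOTCHWT_TCFKO. Il11ra1 was higher by 1.30 ± 0.30 (adjusted p = 0.0135) in NICD_TCFWT, lost without NOTCHWT_TCFWT 1 or 3 (adjusted p up to 0.0514), and by 1.66 ± 0.31 (adjusted p = 0.00376) in NOTCHWT_TCFKO against NOTCHWT_TCFWT. NICD_TCFKO was below NOTCHWT_TCFKO at a log2 difference of -1.07 ± 0.30 (adjusted p = 0.0334), lost without NICD_TCFKO 2 or 3 or NOTCHWT_TCFKO 1 or 3 and with only the 2 groups fitted (adjusted p up to 0.0983). Mice carry near copies of this gene, and its exons overlap Ccl27a on the opposite strand by 8 bases, so its counts are uncertain. Ccl27a averaged 2.3 CPM over the 12 libraries and moved in the direction of Il11ra1, with 3.91 ± 0.46 (adjusted p = 0.000313) in NICD_TCFWT and 5.01 ± 0.47 (adjusted p = 5.91e-05) in NOTCHWT_TCFKO against NOTCHWT_TCFWT and -1.67 ± 0.39 (adjusted p = 0.0156) in NICD_TCFKO against NOTCHWT_TCFKO. The part of shared reads in the Il11ra1 differences was not tested. Lifr, the binding chain for LIF, stayed at or below 3.85 CPM in every library and averaged 0.488 CPM in NOTCHWT_TCFWT and 2.25, 1.92 and 2.39 in NICD_TCFWT, NICD_TCFKO and NOTCHWT_TCFKO. Lifr was higher by 2.20 ± 0.48 (adjusted p = 0.00871) in NICD_TCFWT and 2.29 ± 0.48 (adjusted p = 0.00656) in NOTCHWT_TCFKO; the difference of 1.97 ± 0.47 (adjusted p = 0.0339) in NICD_TCFKO was lost in 6 of 12 fits that each left out 1 library, with limma-voom and with only the 2 groups fitted (adjusted p up to 0.124).

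Il12rb2, the chain through which IL-12 activates STAT4 and a known mark of T helper 1 and natural killer cells, had 53.6, 55.6 and 56.2 CPM in NOTCHWT_TCFWT and 76.5, 135 and 96.0 in NICD_TCFKO. Il12rb2 read 30.1, 28.6 and 18.7 CPM in NICD_TCFWT and 20.1, 16.8 and 21.2 in NOTCHWT_TCFKO. NICD_TCFKO was highest and NOTCHWT_TCFWT next, with no library of these groups as low as those of the other 2. The log2 fold change was -1.09 ± 0.21 (adjusted p = 0.00554) in NICD_TCFWT and -1.51 ± 0.22 (adjusted p = 0.000899) in NOTCHWT_TCFKO against NOTCHWT_TCFWT, and in NICD_TCFKO it was 1.99 ± 0.22 (adjusted p = 0.000472) against NICD_TCFWT and 2.40 ± 0.22 (adjusted p = 8.29e-05) against NOTCHWT_TCFKO. The difference of 0.89 ± 0.21 (adjusted p = 0.0337) between NICD_TCFKO and NOTCHWT_TCFWT was lost without NOTCHWT_TCFWT 1, 2 or 3 or NICD_TCFKO 2 or 3 and with only the 2 groups fitted (adjusted p up to 0.108). The exons of Il12rb2 overlap those of Serbp1 on the opposite strand by 1519 bases. Serbp1 averaged 742 CPM over the 12 libraries and its log2 difference lay between -0.23 and 0.24 in the 6 pairs, none of them called. Il12rb1, the chain shared by the IL-12 and IL-23 receptors, had 35.6, 26.4 and 38.1 CPM in NOTCHWT_TCFWT and 27.9, 19.0 and 21.1 in NICD_TCFKO. Il12rb1 read 17.6, 15.6 and 11.2 CPM in NICD_TCFWT and 8.77, 8.92 and 17.6 in NOTCHWT_TCFKO. Il12rb1 was lower at a log2 difference of -1.17 ± 0.29 (adjusted p = 0.0172) in NICD_TCFWT, lost without NOTCHWT_TCFWT 1 or 3 or NICD_TCFWT 3 (adjusted p up to 0.0604), and at -1.50 ± 0.29 (adjusted p = 0.0049) in NOTCHWT_TCFKO. The difference of 0.95 ± 0.29 (adjusted p = 0.0446) between NICD_TCFKO and NOTCHWT_TCFKO was lost in 9 of 12 fits that each left out 1 library, without the filter on low counts and with only the 2 groups fitted (adjusted p up to 0.138). Il27ra, the IL-27-binding chain, had 67.7, 62.9 and 58.4 CPM in NOTCHWT_TCFWT and 44.4, 35.6 and 41.8 in NICD_TCFKO. Il27ra read 58.0, 48.2 and 51.5 CPM in NICD_TCFWT and 28.1, 27.0 and 45.4 in NOTCHWT_TCFKO. Il27ra was called in 1 pair, lower in NOTCHWT_TCFKO than in NOTCHWT_TCFWT at a log2 difference of -0.91 ± 0.18 (adjusted p = 0.00505).

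The natural killer and innate lymphoid markers were also lower in NICD_TCFWT and NOTCHWT_TCFKO by the sums given above, and the T lineage sum was highest in NICD_TCFKO. The part of these markers in the Il12rb2, Il12rb1, Il9r and Il17rb differences was not tested. Over the 7 receptors of the gp130 and IL-12 group the counts higher and lower were 4 and 2 in NICD_TCFWT against NOTCHWT_TCFWT, 4 and 3 in NOTCHWT_TCFKO against NOTCHWT_TCFWT, 1 and 1 in NICD_TCFKO against NICD_TCFWT and 2 and 2 in NICD_TCFKO against NOTCHWT_TCFKO, beside the shares of all genes given above for the gamma chain list.

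The promoters of 4 receptors with differences in both directions are shown for their sequence: Il9r and Il12rb2 were high in NOTCHWT_TCFWT and NICD_TCFKO, and Il6ra and Il21r were high in NICD_TCFWT and NOTCHWT_TCFKO. Each is the 250 bases upstream of the gene's start in RefSeq (GRCm38.p6), 5′ to 3′ on the strand of the gene: Il9r at chr11:32200280-32200529 (minus strand), Il12rb2 at chr6:67376189-67376438 (minus strand), Il6ra at chr3:89913197-89913446 (minus strand) and Il21r at chr7:125603179-125603428 (plus strand). Capitals mark matches, on either strand, to 6 short motifs: the RBPJ core TGGGAA, the TCF/LEF core CTTTGA, C/EBP half-sites as TTGCNNAA, the PU.1 core GAGGAAG, the GATA core AGATAA and the RUNX core TGTGGT.
Il9r: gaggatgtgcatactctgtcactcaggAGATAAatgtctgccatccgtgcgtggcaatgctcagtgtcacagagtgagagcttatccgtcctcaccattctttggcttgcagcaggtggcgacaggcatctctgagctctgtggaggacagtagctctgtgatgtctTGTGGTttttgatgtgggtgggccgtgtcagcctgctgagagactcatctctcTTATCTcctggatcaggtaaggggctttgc
Il12rb2: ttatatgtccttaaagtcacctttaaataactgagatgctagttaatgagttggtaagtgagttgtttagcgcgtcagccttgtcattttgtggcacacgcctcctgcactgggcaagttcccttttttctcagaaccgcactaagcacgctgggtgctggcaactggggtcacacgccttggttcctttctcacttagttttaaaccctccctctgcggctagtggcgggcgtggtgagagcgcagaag
Il6ra: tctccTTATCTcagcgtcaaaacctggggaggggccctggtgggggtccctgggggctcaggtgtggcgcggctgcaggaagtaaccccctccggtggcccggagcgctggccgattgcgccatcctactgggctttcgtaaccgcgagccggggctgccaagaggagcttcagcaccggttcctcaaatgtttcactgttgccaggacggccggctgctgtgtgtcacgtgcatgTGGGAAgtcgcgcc
Il21r: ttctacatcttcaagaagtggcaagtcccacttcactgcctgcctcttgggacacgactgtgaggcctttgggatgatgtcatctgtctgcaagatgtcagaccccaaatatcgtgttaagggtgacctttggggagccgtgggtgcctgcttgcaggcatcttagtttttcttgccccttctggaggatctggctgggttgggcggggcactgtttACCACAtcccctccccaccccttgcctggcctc
The Il9r window held 2 GATA matches and 1 RUNX match, the Il6ra window 1 RBPJ and 1 GATA match, the Il21r window 1 RUNX match, and the Il12rb2 window none of the 6. RefSeq promoters were matched for 32 of the 40 receptors. Over these, RBPJ matches were found in 7, against 21.6% of 32851 promoters of the same length; TCF/LEF matches in 4 (13.8% of all promoters); C/EBP matches in 4 (9.56%); PU.1 matches in 8 (10.6%); GATA matches in 4 (9.99%); and RUNX matches in 5 (14.0%). The matches are a description of letters in these windows. None of the 6 motifs lies within another.

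Of the IL-1 family receptors, Il18rap, the signalling chain of the IL-18 receptor, was called in all 4 pairs that differ in 1 label. It had 39.4, 42.8 and 27.2 CPM in NOTCHWT_TCFWT and 43.7, 30.5 and 34.8 in NICD_TCFKO. Il18rap read 91.4, 90.0 and 58.1 CPM in NICD_TCFWT and 76.9, 67.0 and 102 in NOTCHWT_TCFKO. NOTCHWT_TCFWT and NICD_TCFKO overlapped each other and lay below the other 2 groups. The log2 fold change was 1.13 ± 0.24 (adjusted p = 0.00798) in NICD_TCFWT and 1.17 ± 0.24 (adjusted p = 0.00626) in NOTCHWT_TCFKO against NOTCHWT_TCFWT. Il18rap in NICD_TCFKO was -1.14 ± 0.24 (adjusted p = 0.0126) against NICD_TCFWT, lost without NICD_TCFWT 1 or NICD_TCFKO 2 (adjusted p up to 0.0586), and -1.17 ± 0.24 (adjusted p = 0.00825) against NOTCHWT_TCFKO. Its partner Il18r1, the IL-18-binding chain, had 5.39, 4.89 and 2.24 CPM in NOTCHWT_TCFWT and 4.5, 3.85 and 1.79 in NICD_TCFKO. Il18r1 read 8.55, 9.85 and 4.38 CPM in NICD_TCFWT and 11.9, 9.53 and 15.8 in NOTCHWT_TCFKO. Il18r1 was higher in NOTCHWT_TCFKO than in NOTCHWT_TCFWT by 1.57 ± 0.44 (adjusted p = 0.0261), lost without NOTCHWT_TCFWT 2 or 3 or NOTCHWT_TCFKO 1 or 3 (adjusted p up to 0.0772), and lower in NICD_TCFKO than in NOTCHWT_TCFKO at a log2 difference of -1.88 ± 0.44 (adjusted p = 0.0155).

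Il1r1, the signalling receptor for IL-1, stood on the other side with 128, 184 and 104 CPM in NOTCHWT_TCFWT and 94.5, 75.2 and 78.8 in NICD_TCFKO. Il1r1 read 73.4, 84.9 and 67.5 CPM in NICD_TCFWT and 73.4, 47.7 and 97.6 in NOTCHWT_TCFKO. NOTCHWT_TCFWT lay above all other libraries. Il1r1 was lower at a log2 difference of -0.88 ± 0.26 (adjusted p = 0.0379) in NICD_TCFWT, lost in 6 of 12 fits that each left out 1 library and without the filter on low counts (adjusted p up to 0.127), and at -0.92 ± 0.26 (adjusted p = 0.03) in NOTCHWT_TCFKO, lost without NOTCHWT_TCFWT 1 or 2 or NOTCHWT_TCFKO 1 or 2, without the filter on low counts and with only the 2 groups fitted (adjusted p up to 0.107). Il1rap, the accessory chain shared by the receptors for IL-1 and IL-33, had 26.2, 30.8 and 28.6 CPM in NOTCHWT_TCFWT and 24.4, 17.5 and 22.6 in NICD_TCFKO. Il1rap read 26.1, 25.5 and 26.1 CPM in NICD_TCFWT and 34.1, 35.5 and 29.0 in NOTCHWT_TCFKO. Il1rap was called in 1 pair, lower in NICD_TCFKO than in NOTCHWT_TCFKO at a log2 difference of -0.61 ± 0.13 (adjusted p = 0.00918), and was lost with only the 2 groups fitted (adjusted p up to 0.0653). Il1rl1 (ST2), the receptor for IL-33 that marks mast cells and type 2 lymphoid cells, was called in no pair. It averaged 32.0 ± 23.4, 10.1 ± 3.78, 4.96 ± 0.153 and 19.1 ± 14.0 CPM in NOTCHWT_TCFWT, NICD_TCFWT, NICD_TCFKO and NOTCHWT_TCFKO. Within NOTCHWT_TCFWT its libraries read 34.5, 7.47 and 54.0 CPM beside mast cell and basophil sums of 624, 581 and 777, and within NOTCHWT_TCFKO 16.6, 34.3 and 6.5 beside 374, 656 and 283. In NICD_TCFWT Il1rl1 was 7.68, 8.12 and 14.4 CPM beside 360.2, 369.9 and 389, and in NICD_TCFKO 4.82, 4.94 and 5.13 beside 386, 348 and 405. The order of the libraries was the same for both measures in 3 groups and differed in NICD_TCFKO. Il1rl1 in NICD_TCFKO against NOTCHWT_TCFWT was -2.69 ± 0.73 (adjusted p = 0.0614), with no overlap of the libraries and no call.

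The 2 IL-17 receptor chains differed in scale. Il17rb, which binds IL-25 and pairs with Il17ra, had 33.0, 30.8 and 35.0 CPM in NOTCHWT_TCFWT and 50.8, 154 and 117 in NICD_TCFKO. Il17rb read 6.08, 5.68 and 7.3 CPM in NICD_TCFWT and 9.35, 7.22 and 7.64 in NOTCHWT_TCFKO. All NICD_TCFKO libraries lay above those of NOTCHWT_TCFWT, and these above all libraries of the other 2 groups. Within NICD_TCFKO, Il17rb had the order of the T lineage sums of the same libraries, 479.6, 1394 and 1107 CPM, and in the other 3 groups it had not. Il9r and Il12rb2 had the order of the T lineage sums in NICD_TCFWT and NICD_TCFKO, and another order in NOTCHWT_TCFWT and NOTCHWT_TCFKO. With 3 libraries a group, orders can match by chance. The log2 fold change of Il17rb was -2.37 ± 0.33 (adjusted p = 0.001) in NICD_TCFWT and -2.03 ± 0.32 (adjusted p = 0.00193) in NOTCHWT_TCFKO against NOTCHWT_TCFWT. Il17rb in NICD_TCFKO was 4.08 ± 0.35 (adjusted p = 0.000132) against NICD_TCFWT and 3.73 ± 0.34 (adjusted p = 0.000101) against NOTCHWT_TCFKO, fold sizes of 16.9 and 13.3. The difference of 1.70 ± 0.32 (adjusted p = 0.0137) between NICD_TCFKO and NOTCHWT_TCFWT was lost without NOTCHWT_TCFWT 1 or 3 and with only the 2 groups fitted (adjusted p up to 0.0855). Actr8, which overlaps Il17rb on the opposite strand, was not called in any of the 6 pairs. Il17ra, the chain common to the IL-17 receptors, had 300.3, 292 and 286 CPM in NOTCHWT_TCFWT and 239, 244 and 256 in NICD_TCFKO. Il17ra read 248, 257 and 249 CPM in NICD_TCFWT and 206, 202 and 251 in NOTCHWT_TCFKO. Il17ra was called in 1 pair, lower in NOTCHWT_TCFKO than in NOTCHWT_TCFWT at a log2 difference of -0.41 ± 0.08 (adjusted p = 0.00474).

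The interferon and IL-10 receptor chains with a call were, with the exception of Il10ra, higher in NICD_TCFWT or NOTCHWT_TCFKO than in NOTCHWT_TCFWT. Ifngr2, the signalling chain of the interferon gamma receptor, had 13.4, 12.9 and 13.3 CPM in NOTCHWT_TCFWT and 22.2, 19.0 and 21.6 in NICD_TCFKO. Ifngr2 read 31.2, 32.2 and 28.6 CPM in NICD_TCFWT and 31.4, 30 and 29.2 in NOTCHWT_TCFKO. Its 3 levels did not overlap, with NOTCHWT_TCFWT lowest and NICD_TCFKO between. Ifngr2 was higher by 1.22 ± 0.09 (adjusted p = 1.49e-05) in NICD_TCFWT, 1.19 ± 0.09 (adjusted p = 1.27e-05) in NOTCHWT_TCFKO and 0.67 ± 0.09 (adjusted p = 0.00248) in NICD_TCFKO, each against NOTCHWT_TCFWT. Ifngr2 in NICD_TCFKO was -0.55 ± 0.09 (adjusted p = 0.00345) against NICD_TCFWT and -0.53 ± 0.09 (adjusted p = 0.00298) against NOTCHWT_TCFKO. Il10rb, the chain shared by the receptors for IL-10, IL-22 and interferon lambda, had 20.1, 18.7 and 16.3 CPM in NOTCHWT_TCFWT and 24.6, 23.5 and 26.1 in NICD_TCFKO. Il10rb read 42.2, 45.8 and 49.9 CPM in NICD_TCFWT and 45.2, 38.5 and 48.8 in NOTCHWT_TCFKO. Il10rb was higher by 1.32 ± 0.11 (adjusted p = 4.46e-05) in NICD_TCFWT and 1.27 ± 0.11 (adjusted p = 4.3e-05) in NOTCHWT_TCFKO. Il10rb in NICD_TCFKO was -0.89 ± 0.11 (adjusted p = 0.00089) against NICD_TCFWT and -0.84 ± 0.11 (adjusted p = 0.000789) against NOTCHWT_TCFKO. The difference of 0.43 ± 0.11 (adjusted p = 0.0478) between NICD_TCFKO and NOTCHWT_TCFWT was lost in 10 of 12 fits that each left out 1 library, without the filter on low counts, with limma-voom and with only the 2 groups fitted (adjusted p up to 0.147).

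Ifngr1, the binding chain for interferon gamma, had 86.7, 67.9 and 98.9 CPM in NOTCHWT_TCFWT and 73.7, 81.1 and 80.8 in NICD_TCFKO. Ifngr1 read 93.8, 93.6 and 123 CPM in NICD_TCFWT and 183, 197 and 120.3 in NOTCHWT_TCFKO. Ifngr1 was higher in NOTCHWT_TCFKO than in NOTCHWT_TCFWT by 0.98 ± 0.19 (adjusted p = 0.00514), and lower in NICD_TCFKO than in NOTCHWT_TCFKO at a log2 difference of -1.09 ± 0.19 (adjusted p = 0.00415). The macrophage markers were also highest in NOTCHWT_TCFKO, at 350.1 to 494 CPM, and their part in this was not tested. Ifnar2 and Ifnar1 form the receptor for type I interferon, the signal that poly(I:C) is known to raise. Ifnar2 had 58.5, 63.2 and 58.8 CPM in NOTCHWT_TCFWT and 68.5, 79.9 and 78.7 in NICD_TCFKO. Ifnar2 read 79.1, 80.4 and 92.6 CPM in NICD_TCFWT and 85.7, 75.5 and 89.1 in NOTCHWT_TCFKO. Ifnar2 was higher by 0.48 ± 0.09 (adjusted p = 0.00438) in NICD_TCFWT and 0.47 ± 0.09 (adjusted p = 0.0045) in NOTCHWT_TCFKO. Ifnar1 averaged 91.0 ± 10.4, 117 ± 4.99, 107 ± 5.47 and 109 ± 11.4 CPM, and its difference of 0.36 ± 0.10 (adjusted p = 0.0222) in NICD_TCFWT was lost without NOTCHWT_TCFWT 1 or 3 or NICD_TCFWT 1 or 2 (adjusted p up to 0.0783). Il10ra, the binding chain for IL-10, had 30.4, 45.5 and 27.4 CPM in NOTCHWT_TCFWT and 50.0, 83.8 and 80.2 in NICD_TCFKO. Il10ra read 54.0, 45.4 and 47.4 CPM in NICD_TCFWT and 27.6, 37.6 and 34.1 in NOTCHWT_TCFKO. It was higher in NICD_TCFKO, by 1.11 ± 0.23 (adjusted p = 0.00896) against NOTCHWT_TCFKO and by 1.05 ± 0.23 (adjusted p = 0.0241) against NOTCHWT_TCFWT, and the second call was lost without NOTCHWT_TCFWT 1 or 3 or NICD_TCFKO 2 or 3 and with only the 2 groups fitted (adjusted p up to 0.1).

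Both TNF receptors were higher in NICD_TCFWT and NOTCHWT_TCFKO than in NOTCHWT_TCFWT. Tnfrsf1a, the widely expressed receptor with a death domain, had 56.2, 71.4 and 43.7 CPM in NOTCHWT_TCFWT and 85.2, 52.5 and 74.9 in NICD_TCFKO. Tnfrsf1a read 105, 108 and 123 CPM in NICD_TCFWT and 104, 114 and 108 in NOTCHWT_TCFKO. Tnfrsf1a was higher by 0.97 ± 0.19 (adjusted p = 0.00569) in NICD_TCFWT and 0.93 ± 0.19 (adjusted p = 0.00648) in NOTCHWT_TCFKO against NOTCHWT_TCFWT. Tnfrsf1a in NICD_TCFKO was -0.66 ± 0.19 (adjusted p = 0.0462) against NICD_TCFWT, lost in 9 of 12 fits that each left out 1 library, without the filter on low counts and with only the 2 groups fitted (adjusted p up to 0.154), and -0.62 ± 0.19 (adjusted p = 0.0457) against NOTCHWT_TCFKO, lost in 9 of 12 fits that each left out 1 library, without the filter on low counts and with only the 2 groups fitted (adjusted p up to 0.136). Tnfrsf1b, the receptor found mainly on blood cells, had 63.1, 65.8 and 63.3 CPM in NOTCHWT_TCFWT and 71.3, 65.3 and 65.4 in NICD_TCFKO. Tnfrsf1b read 78.3, 76.4 and 84.5 CPM in NICD_TCFWT and 85.3, 95.2 and 85.0 in NOTCHWT_TCFKO. Its changes were small, 0.32 ± 0.07 (adjusted p = 0.00927) in NICD_TCFWT and 0.47 ± 0.07 (adjusted p = 0.000999) in NOTCHWT_TCFKO, and the first was lost without NICD_TCFWT 3 (adjusted p up to 0.0561). Tnfrsf1b in NICD_TCFKO was -0.39 ± 0.07 (adjusted p = 0.00364) against NOTCHWT_TCFKO and -0.24 ± 0.07 (adjusted p = 0.0427) against NICD_TCFWT, the latter lost in 9 of 12 fits that each left out 1 library, without the filter on low counts and with only the 2 groups fitted (adjusted p up to 0.183).

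Of the TGF-beta receptors, Tgfbr2, the type II kinase that binds the ligand first, had 136, 169 and 150.4 CPM in NOTCHWT_TCFWT and 134, 114 and 135 in NICD_TCFKO. Tgfbr2 read 92.0, 90.5 and 95.7 CPM in NICD_TCFWT and 75.2, 80.3 and 103 in NOTCHWT_TCFKO. Tgfbr2 was lower at a log2 difference of -0.71 ± 0.12 (adjusted p = 0.00261) in NICD_TCFWT and -0.82 ± 0.12 (adjusted p = 0.00104) in NOTCHWT_TCFKO against NOTCHWT_TCFWT. Tgfbr2 in NICD_TCFKO was 0.46 ± 0.12 (adjusted p = 0.032) against NICD_TCFWT, lost without NICD_TCFWT 1, 2 or 3 or NICD_TCFKO 1 or 3 (adjusted p up to 0.0969), and 0.57 ± 0.12 (adjusted p = 0.0101) against NOTCHWT_TCFKO, lost with only the 2 groups fitted (adjusted p up to 0.0521). Tgfbr1, the type I kinase that Tgfbr2 activates, had 76.3, 106 and 82.6 CPM in NOTCHWT_TCFWT and 88.7, 114 and 115 in NICD_TCFKO. Tgfbr1 read 68.8, 72.9 and 67.0 CPM in NICD_TCFWT and 75.7, 69.5 and 73.5 in NOTCHWT_TCFKO. Tgfbr1 was higher in NICD_TCFKO by 0.61 ± 0.13 (adjusted p = 0.0123) against NICD_TCFWT, lost without NICD_TCFWT 1 or NICD_TCFKO 2 (adjusted p up to 0.055), and by 0.54 ± 0.13 (adjusted p = 0.0156) against NOTCHWT_TCFKO, lost without NICD_TCFKO 2 or 3 or NOTCHWT_TCFKO 2 (adjusted p up to 0.0625). Tgfbr3 (betaglycan), which presents the ligand, and Igf1r, the receptor for insulin-like growth factor, were called in no pair. Tgfbr3 averaged 62.5 ± 13.1, 58.4 ± 19.9, 26.1 ± 14.2 and 38.6 ± 5.27 CPM in NOTCHWT_TCFWT, NICD_TCFWT, NICD_TCFKO and NOTCHWT_TCFKO, and Igf1r 58.6 ± 6.78, 54.6 ± 6.49, 41.3 ± 7.72 and 53.5 ± 2.13. Tgfbr3 was -1.26 ± 0.37 (adjusted p = 0.0763) in NICD_TCFKO against NOTCHWT_TCFWT.

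Levels per length of exon allow the receptors to be set side by side, within limits. The lengths include bases shared with other counted genes. These are 1519 of 3794 bases of Il12rb2 (Serbp1) and 728 of 2387 of Il2rg (Gm20489, with 0 counts). Il10rb shares 569 of 3808 and Ifnar2 315 of 3329 with Gm21970, which also has 0 counts. How reads there were assigned was not tested, so levels and ratios per length of these genes are uncertain. As group means in CPM per kb, in the order NOTCHWT_TCFWT, NICD_TCFWT, NICD_TCFKO and NOTCHWT_TCFKO, Il2rg stood at 68.8, 31.5, 50.0 and 22.3, Csf3r at 14.0, 76.3, 19.1 and 67.9, Ifngr1 at 29.7, 36.3, 27.6 and 58.6, Tnfrsf1a at 22.0, 43.2, 27.4 and 42.0 and Il17ra at 33.8, 29.0, 28.5 and 25.4. These 5 had the highest means over the groups. Il2rg was the highest of the 40 in NOTCHWT_TCFWT, and Csf3r in NICD_TCFWT and NOTCHWT_TCFKO. The lowest means were those of Lifr at 0.0453, 0.209, 0.178 and 0.222, Il13ra1 at 0.067, 0.104, 0.339 and 0.622 and Il9r at 2.04, 0.117, 3.26 and 0.0844 CPM per kb. Il9r thus had the largest called fold among the 40 while its mean over the groups was the third lowest per kb.

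Chains of 1 receptor did not always keep a fixed ratio across groups. Per length, Il6ra to Il6st was 0.0315 to 0.0478 in NOTCHWT_TCFWT, 0.551 to 0.879 in NICD_TCFWT, 0.12 to 0.252 in NICD_TCFKO and 0.564 to 0.91 in NOTCHWT_TCFKO. Il17rb to Il17ra was 0.246 to 0.286 in NOTCHWT_TCFWT, 0.0516 to 0.0684 in NICD_TCFWT, 0.496 to 1.47 in NICD_TCFKO and 0.071 to 0.106 in NOTCHWT_TCFKO. Il21r to Il2rg was 0.0378 to 0.0529 in NOTCHWT_TCFWT, 0.327 to 0.463 in NICD_TCFWT, 0.118 to 0.143 in NICD_TCFKO and 0.443 to 0.571 in NOTCHWT_TCFKO, and Il9r to Il2rg 0.0171 to 0.0478 in NOTCHWT_TCFWT, 0.00217 to 0.00483 in NICD_TCFWT, 0.0403 to 0.0833 in NICD_TCFKO and 0.00299 to 0.00475 in NOTCHWT_TCFKO. In these 4 pairs of chains the ranges of NICD_TCFKO and NOTCHWT_TCFWT lay wholly outside those of NICD_TCFWT and NOTCHWT_TCFKO. Il10ra to Il10rb was 1.64 to 2.65 in NOTCHWT_TCFWT, 1.03 to 1.39 in NICD_TCFWT, 2.21 to 3.88 in NICD_TCFKO and 0.666 to 1.06 in NOTCHWT_TCFKO. Ifnar2 to Ifnar1 kept closer, at 1.1 to 1.27 in NOTCHWT_TCFWT, 1.16 to 1.48 in NICD_TCFWT, 1.2 to 1.34 in NICD_TCFKO and 1.31 to 1.42 in NOTCHWT_TCFKO. In the same order, Il18rap to Il18r1 was 5.21 to 8.67, 6.52 to 9.47, 5.65 to 13.9 and 4.6 to 5.02. Csf2ra to Csf2rb was 0.654 to 1.56, 0.84 to 1.27, 1.45 to 2.21 and 1.13 to 2.21. Il1r1 to Il1rap was 6.48 to 10.7, 4.61 to 5.95, 6.22 to 7.65 and 2.4 to 6.01. Ifngr2 to Ifngr1 was 0.101 to 0.144, 0.177 to 0.26, 0.177 to 0.227 and 0.115 to 0.183. Tgfbr2 to Tgfbr1 was 1.27 to 1.45 in NOTCHWT_TCFWT, above all libraries of the other groups. It was 0.991 to 1.14 in NICD_TCFWT, 0.793 to 1.21 in NICD_TCFKO and 0.793 to 1.12 in NOTCHWT_TCFKO. Il12rb2 to Il12rb1 was 1.6 to 2.28 in NOTCHWT_TCFWT, 1.81 to 1.98 in NICD_TCFWT, 2.97 to 7.68 in NICD_TCFKO and 1.3 to 2.48 in NOTCHWT_TCFKO, with all 3 NICD_TCFKO libraries above the other 9.

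Several of the receptors lie beside each other in the genome (mm10). On chromosome 16, Ifnar2, Il10rb, Ifnar1 and Ifngr2 stand in a row within 91372783 to 91565623, with gaps of 0.6, 59.4 and 39.6 kb. Their log2 differences in NICD_TCFWT against NOTCHWT_TCFWT were 0.48, 1.32, 0.36 and 1.22, and in NOTCHWT_TCFKO against NOTCHWT_TCFWT 0.47, 1.27, 0.26 and 1.19. All 4 had the same sign in both, with larger values for Il10rb and Ifngr2 than for the type I interferon chains. On chromosome 1, Il1r1, Il1rl1, Il18r1 and Il18rap lie within 40225080 to 40551705, with gaps of 112.3, 0.1 and 14.5 kb. Here the signs were mixed: in NICD_TCFWT against NOTCHWT_TCFWT the log2 differences were -0.88, -1.67, 0.86 and 1.13, of which Il1r1 and Il18rap were called.

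The kinases and factors behind the receptors were read from lists chosen by function. The shares of all genes higher and lower, to be read beside each list's counts, were 10.6% and 9.75% in NICD_TCFWT against NOTCHWT_TCFWT, 10.8% and 10.5% in NOTCHWT_TCFKO against NOTCHWT_TCFWT, 7.25% and 5.15% in NICD_TCFKO against NICD_TCFWT and 10.3% and 8.06% in NICD_TCFKO against NOTCHWT_TCFKO. Of 12 JAK kinases, STAT factors and Irf9, all tested, the calls were 0 higher and 6 lower in NICD_TCFWT against NOTCHWT_TCFWT, 0 higher and 8 lower in NOTCHWT_TCFKO against NOTCHWT_TCFWT, 2 higher and 0 lower in NICD_TCFKO against NICD_TCFWT and 4 higher and 0 lower in NICD_TCFKO against NOTCHWT_TCFKO. Jak1, which serves the gp130, gamma chain and interferon receptors, was lower at a log2 difference of -0.48 ± 0.07 (adjusted p = 0.0015) in NICD_TCFWT and -0.39 ± 0.07 (adjusted p = 0.00417) in NOTCHWT_TCFKO against NOTCHWT_TCFWT, and Stat3, the main factor of gp130, at a log2 difference of -0.48 ± 0.09 (adjusted p = 0.00511) and -0.67 ± 0.09 (adjusted p = 0.000725). In NICD_TCFKO, Stat3 was 0.38 ± 0.09 (adjusted p = 0.0267) against NICD_TCFWT and 0.56 ± 0.09 (adjusted p = 0.00296) against NOTCHWT_TCFKO. In both comparisons against NOTCHWT_TCFWT Ifnar2, Ifngr2 and Il6ra were higher while Stat3 and Jak1 were lower.

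Of 36 ligands of these receptors, 20 passed the filter, with 5 higher and 1 lower in NICD_TCFWT against NOTCHWT_TCFWT, 5 higher and 1 lower in NOTCHWT_TCFKO against NOTCHWT_TCFWT, 1 higher and 2 lower in NICD_TCFKO against NICD_TCFWT and 0 higher and 5 lower in NICD_TCFKO against NOTCHWT_TCFKO. Il12a, the IL-12 subunit shared with IL-35, averaged 12.6 ± 2.17 CPM in NOTCHWT_TCFWT and 67.0 ± 6.83 in NICD_TCFWT, a log2 fold change of 2.41 ± 0.26 (adjusted p = 0.000243), and was -2.43 ± 0.26 (adjusted p = 0.000468) in NICD_TCFKO against NICD_TCFWT. Il4 was lower at a log2 difference of -3.42 ± 0.66 (adjusted p = 0.00534) in NICD_TCFWT and -4.24 ± 0.69 (adjusted p = 0.00201) in NOTCHWT_TCFKO, while Il4ra was higher in both. Igf1, a product of macrophages among other cells, averaged 11.3 ± 2.54 CPM in NOTCHWT_TCFKO and 0.121 ± 0.0563 in NOTCHWT_TCFWT (6.51 ± 0.69 (adjusted p = 0.000128)). The macrophage sum was also highest in NOTCHWT_TCFKO, and its part in this was not tested.

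Of 23 inhibitors and decoys of cytokine signalling 21 were tested, with 0 higher and 4 lower in NICD_TCFWT against NOTCHWT_TCFWT, 1 higher and 4 lower in NOTCHWT_TCFKO against NOTCHWT_TCFWT, 3 higher and 0 lower in NICD_TCFKO against NICD_TCFWT and 6 higher and 1 lower in NICD_TCFKO against NOTCHWT_TCFKO. Usp18, which restrains the type I interferon receptor, was lower in NOTCHWT_TCFKO than in NOTCHWT_TCFWT at a log2 difference of -1.56 ± 0.26 (adjusted p = 0.00224) and higher in NICD_TCFKO than in NOTCHWT_TCFKO by 1.20 ± 0.26 (adjusted p = 0.0105). Ptpn6, a phosphatase that dampens many of these receptors, was lower at a log2 difference of -0.31 ± 0.09 (adjusted p = 0.0408) in NICD_TCFWT and -0.37 ± 0.09 (adjusted p = 0.0173) in NOTCHWT_TCFKO. All 22 genes of IL-1, TNF and NF-kB signalling were tested, with 1 higher and 7 lower in NICD_TCFWT against NOTCHWT_TCFWT, 2 higher and 7 lower in NOTCHWT_TCFKO against NOTCHWT_TCFWT, 2 higher and 1 lower in NICD_TCFKO against NICD_TCFWT and 3 higher and 2 lower in NICD_TCFKO against NOTCHWT_TCFKO. Irak3, an inhibitory kinase of the IL-1 pathway, was higher by 1.68 ± 0.23 (adjusted p = 0.000752) in NICD_TCFWT, whereas Nfkb1 and Nfkb2 were lower at a log2 difference of -0.49 ± 0.09 (adjusted p = 0.00333) and -0.78 ± 0.13 (adjusted p = 0.00194).

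All 16 genes of SMAD signalling were tested, with 2 higher and 3 lower in NICD_TCFWT against NOTCHWT_TCFWT, 2 higher and 3 lower in NOTCHWT_TCFKO against NOTCHWT_TCFWT, 2 higher and 2 lower in NICD_TCFKO against NICD_TCFWT and 2 higher and 2 lower in NICD_TCFKO against NOTCHWT_TCFKO, counts close to the shares of all genes in a list of this size. Smad7, an inhibitory SMAD that the pathway itself induces, averaged 64.3 ± 12.4 CPM in NOTCHWT_TCFWT, 16.3 ± 1.51 in NICD_TCFWT, 44.3 ± 1.29 in NICD_TCFKO and 20.8 ± 0.245 in NOTCHWT_TCFKO. It was lower at a log2 difference of -1.98 ± 0.13 (adjusted p = 6.41e-06) in NICD_TCFWT and -1.63 ± 0.13 (adjusted p = 1.55e-05) in NOTCHWT_TCFKO, as was Tgfbr2, and higher in NICD_TCFKO by 1.44 ± 0.13 (adjusted p = 0.000106) against NICD_TCFWT and 1.09 ± 0.12 (adjusted p = 0.000269) against NOTCHWT_TCFKO. Of 10 IGF signalling genes 6 were tested, with 2 higher and 1 lower in NICD_TCFWT against NOTCHWT_TCFWT, 2 higher and 0 lower in NOTCHWT_TCFKO against NOTCHWT_TCFWT, 0 higher and 0 lower in NICD_TCFKO against NICD_TCFWT and 0 higher and 2 lower in NICD_TCFKO against NOTCHWT_TCFKO. Grb10, an adaptor that inhibits the insulin and IGF receptors, averaged 3.78 ± 1.98 CPM in NOTCHWT_TCFWT and 57.6 ± 15.6 in NICD_TCFWT (3.92 ± 0.51 (adjusted p = 0.000846)), and Igfbp4, a secreted IGF-binding protein, rose by 1.63 ± 0.17 (adjusted p = 0.000192), while Igf1r itself was not called.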

How the data were processed

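The deposited files hold raw counts per Ensembl gene for 39017 genes in 12 LSK libraries, which the authors made, per the submitters' processing notes, with bcl2fastq, cutadapt, HISAT2 and featureCounts on mm10; edgeR and limma are named too, without their roles, and the strand setting is not given in the sources used here. Per the labels' protocols, RNA came from a PicoPure kit and libraries from TruSeq RNA and Nextera XT chemistry, read as single-end reads on a NextSeq, all in batch 1. A deposited table of log2 values by the authors, for 15759 genes, held 38 of the 40 receptors and was used for that count alone. The 12 sample files equalled the series table.

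Everything reported was computed from the counts. Symbols and positions came from GENCODE M21 (GRCm38), promoters from RefSeq (GRCm38.p6). filterByExpr left 16024 genes. edgeR 4.0.16 in R 4.3.3 fitted 1 mean per group over all 12 libraries with TMM factors (0.961 to 1.03), and the quasi-likelihood test was two-sided with Benjamini-Hochberg adjustment over all 16024 genes. A receptor was called at an adjusted p under 0.05; log2 fold changes carry their SE, and CPM their SD over 3 libraries. Levels per kb divide CPM by the length of the merged exons. Totals of 30453271 to 43790674 counts limit precision at low levels, and the spread between libraries, estimated for each gene, limits it elsewhere. The common biological coefficient of variation was 0.299. The code was tested on simulated data.

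Members, lists and tests were chosen with earlier results of these data known. All 40 members are accounted for; values per library are given for those called in the joint test with at least 5 CPM in a group, and at most 4 called genes per pathway list and pair could be named, those of smallest p. Csf2ra was also given by library, after its values were seen. Alternatives were DESeq2's size factors, no filter, at least 1 CPM in 3 libraries, DESeq2 1.42.0, limma-voom (limma 3.58.1), a replicate block, fits of the compared groups alone, leaving out each library and, added after seeing the data, a term for libraries with at least 100 CPM of Xist. Protein sequences were not analysed here. The values of one pathway gene are not reported here.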

Additional observations from a re-analysis of the deposited data

Results flagged for a closer look

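For 25 of the 40 receptors the difference made by the N1IC label was not the same under both Tcf7 labels, by a test of that difference itself in edgeR's model: NICD_TCFKO against NOTCHWT_TCFKO, minus NICD_TCFWT against NOTCHWT_TCFWT. The largest positive value was that of Il9r at 9.38 ± 0.80 (adjusted p = 2.31e-05), where the N1IC label went with -4.12 without the Tcf7 deletion label and with 5.26 under it. Il17rb had 6.10 ± 0.47 (adjusted p = 1.71e-05), from -2.37 to 3.73, and Il12rb2 3.50 ± 0.31 (adjusted p = 2.88e-05), from -1.09 to 2.40. The gamma chain Il2rg had 2.29, and Il12rb1, the chain shared by the IL-12 and IL-23 receptors, had 2.12. The TGF-beta receptors Tgfbr2 and Tgfbr1 had 1.28 and 0.89, and Il17ra 0.38.

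Il6ra had the most negative value, -7.24 ± 0.60 (adjusted p = 2.66e-05), from 4.96 to -2.28, and Csf3r had -4.27 ± 0.54 (adjusted p = 0.000432), from 2.44 to -1.83. In the gp130 group Lifr had -2.52, Il11ra1 -2.36 and Il6st -0.89. In the list with the gamma chain Il21r had -2.59, Crlf2 -1.78, Il4ra -0.98 and Il15ra -0.55. The IL-18 receptor chains Il18r1 and Il18rap had -2.74 and -2.30. Of the interferon and IL-10 chains Il10rb had -2.16, Ifngr2 -1.75, Ifngr1 -1.38 and Ifnar2 -0.62. The TNF receptors Tnfrsf1a and Tnfrsf1b had -1.59 and -0.71. Of the 25, the calls of Il4ra, Il15ra, Il6st and Il17ra were lost in fits that left out 1 library: that of Il4ra was lost without NICD_TCFWT 3 or NICD_TCFKO 2 (adjusted p up to 0.0583), Il15ra in 8 of 12 fits that each left out 1 library (adjusted p up to 0.0785), Il6st in 9 of 12 fits that each left out 1 library (adjusted p up to 0.0873) and Il17ra without NOTCHWT_TCFWT 1 or NICD_TCFWT 1 or NOTCHWT_TCFKO 1 and without the filter on low counts (adjusted p up to 0.0671). All of these rest on the labels, which the Tcf7, Hes1 and Dtx1 levels given above went against in part. They also use NOTCHWT_TCFWT, the group with no Mx1Cre named.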

How the results depend on the processing

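Of 116 calls on single receptors in the 6 pairs and the interaction, 78 were kept in every alternative before the term for Xist, and none changed direction in any. Fits without 1 library ended 35 of them at least once, and the other settings 22: none under DESeq2's size factors, the filter of at least 1 CPM in 3 libraries or DESeq2, 3 with limma-voom, 8 without a filter on low counts, and 18 of 91 when only the groups of the pair were fitted. DESeq2 gave 14 receptors lower in NICD_TCFKO against NICD_TCFWT in place of 9, 8 lower in NICD_TCFKO against NOTCHWT_TCFWT in place of 0, and 1 higher and 2 lower in NICD_TCFWT against NOTCHWT_TCFKO in place of 0. With limma-voom NICD_TCFKO against NOTCHWT_TCFWT had 5 higher and 1 lower. Fitting only 2 groups, which has fewer libraries for the spread, gave 3 higher and 2 lower there, and 8 lower in NICD_TCFKO against NOTCHWT_TCFKO in place of 13. The term for Xist, chosen after seeing the data, ended 6 of the 116 calls: Ifnar1 in NICD_TCFWT against NOTCHWT_TCFWT, Il4ra in NOTCHWT_TCFKO against NOTCHWT_TCFWT, Tnfrsf1a in NICD_TCFKO against NICD_TCFWT, Il10rb in NICD_TCFKO against NOTCHWT_TCFWT, and Il4ra and Il15ra in the interaction (adjusted p from 0.0515 to 0.0838). It gave 5 lower in NICD_TCFKO against NOTCHWT_TCFWT in place of 0.

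Leaving out 1 library at a time moved the counts higher and lower to 11 to 15 and 5 to 8 in NICD_TCFWT against NOTCHWT_TCFWT, 13 to 18 and 8 to 9 in NOTCHWT_TCFKO against NOTCHWT_TCFWT, 3 to 6 and 4 to 13 in NICD_TCFKO against NICD_TCFWT, 6 to 10 and 9 to 16 in NICD_TCFKO against NOTCHWT_TCFKO, 3 to 9 and 0 to 3 in NICD_TCFKO against NOTCHWT_TCFWT, and 0 to 2 and 0 to 2 in NICD_TCFWT against NOTCHWT_TCFKO. The last pair reached 2 and 2 without NOTCHWT_TCFKO 3. The interaction moved to 7 to 10 positive and 14 to 18 negative, and the joint test to 23 to 32. Without NOTCHWT_TCFKO 1, which held Xist and Y-linked transcripts, the counts were 13 and 6, 16 and 8, 5 and 7, 7 and 11, 7 and 0, and 0 and 0 in the same order. The cause of these shifts was not tested beyond the smaller number of libraries.

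Same-numbered libraries of different groups did not deviate together: the correlation of their deviations ran from -0.399 to 0.427 over 18 pairs, and 3 of 12 libraries correlated best with their own number. No pairing by number was seen. With few libraries per group, this check cannot show that same-numbered libraries shared no mouse or preparation. A fit with the replicate block gave 14 and 6, 16 and 8, 5 and 8, 7 and 11, 6 and 0, and 0 and 0, with 8 and 16 for the interaction and 26 in the joint test, and 12 of the 116 calls were lost. The losses listed by receptor above leave out this block. Against NOTCHWT_TCFWT it ended Il1r1 in NICD_TCFWT, and Il4ra, Crlf2 and Il1r1 in NOTCHWT_TCFKO. In NICD_TCFKO it ended Tnfrsf1a and Tnfrsf1b against NICD_TCFWT, Il11ra1, Il12rb1 and Tnfrsf1a against NOTCHWT_TCFKO, and Il12rb2 and Il10rb against NOTCHWT_TCFWT. Il15ra was lost in the interaction.

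Receptors under about 1 CPM, such as Il13ra1, Lifr and Il9r in its low groups, rest on few counts. Among receptors of wide spread, differences as large as -2.69 ± 0.73 (adjusted p = 0.0614) for Il1rl1 and -2.04 ± 0.88 (adjusted p = 0.219) for Epor in NICD_TCFKO against NOTCHWT_TCFWT were not called with 3 libraries a group.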
